A study of Mus musculus with 18 samples.

Results

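The 38 genes described here are epithelial genes of the mouse: 10 of tight junctions, 2 of apical polarity, 7 of desmosomes, 4 simple keratins, 8 regulators of epithelial identity, and 7 membrane proteases, their inhibitors, trafficking and adhesion proteins. They were chosen by name, and among probe sets that carry 1 gene symbol, each gene was read from the one whose mean across 18 arrays was highest. All 38 were measured, of 22180 genes in all. The cells were reprogrammable mouse embryonic fibroblasts (Rep-MEFs, strain Black6-129X1/SvJ), in which OKSM (the reprogramming factors Oct4, Klf4, Sox2 and Myc) can be switched on with dox. One arm expressed OKSM alone. The other expressed OKSM with AGi, which is ascorbic acid plus an inhibitor of the kinase GSK3. Bulk cultures of each arm were sampled on days 2, 4, 6, 8, 10 and 12 and gave a single array apiece. The remaining 6 arrays were Rep-MEFs without dox (MEFs), wild-type embryonic stem cells (ESCs), an induced pluripotent stem cell (iPSC) line made from fibroblasts with 96 hours of OKSM and AGi, an iPSC line made from granulocyte-macrophage progenitors (GMPs) with 48 hours, GMPs, and refractory Thy1+ cells sorted after 3 days of OKSM. All values are log2 expression values, and a difference of 1 is a doubling.

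Epithelial cells are held together by tight junctions, which seal the space between neighbours, and by desmosomes, which tie the keratin filaments of neighbours to each other. Fibroblasts lack most of this machinery, whereas mouse ESCs grow as compact colonies with epithelial features, so reprogramming of fibroblasts includes a transition from a mesenchymal to an epithelial state. That transition is commonly placed early in reprogramming. Repressors of the SNAI and ZEB families, which bind E-box sequences in promoters of epithelial genes, act against it.

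Since each condition had a single array, errors and p-values below do not come from repeats of a condition. For the AGi effect they reflect how much the difference between the arms varies over the 6 days. For slopes they reflect the scatter about a line per arm. In limma, the variance of each gene is also drawn toward that of all genes. Precision is limited by the 6 days. Medians of the arrays ranged from 6.32 to 6.46. The labels matched their defining markers: the mean level of 12 pluripotency markers was 10.83 in ESCs and 6.33 in MEFs, that of 10 fibroblast markers was 10.50 in MEFs and 7.74 in ESCs, and that of 16 macrophage markers was highest in GMPs (8.92). Spiked-in hybridisation controls (18 probe sets), whose RNA is not from the cells, were also higher in the AGi arm, each by 0.06 to 0.26. Fitted together with the genes, 11 of the 18 were called higher with AGi (limma, day as a block, adjusted p under 0.05). A call in that test can thus be met by a difference that is not from the cells. Fibroblast markers moved in a step in both arms: their mean level was 9.01 and 9.05 on days 4 and 6 with OKSM alone and 10.61 to 10.79 from day 8 on, and with AGi it was 7.79 and 8.28, then 9.45 to 9.68. In bulk cultures, fewer cells of a type and less RNA per cell cannot be told apart.

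The first comparison asked which epithelial genes differed with AGi. Of the 37 genes tested, 26 were higher with AGi, 2 were lower (the transcription factor Ehf and the junction protein Jup) and 9 did not pass (limma, day as a block, Benjamini-Hochberg adjusted p under 0.05 over 13865 genes). Over all genes tested, 19.6% were called higher and 19.3% lower. The median difference was 0.84 over the 37 genes and 0.00 over all genes. By role, 7 of 10 tight junction genes, both polarity genes, 5 of 7 desmosome genes, 1 of 4 keratins, 5 of 7 regulators and 6 of 7 of the proteases, trafficking and adhesion genes were higher. Ovol1, a zinc finger regulator, stayed below the array median on all 12 time-course arrays and was not tested. Cldn7, Marveld2, Dsg2, Grhl2 and Elf3 reached the array median only on arrays with AGi, so that they entered the test through the arm in which they were high. All of them but Cldn7 are among the 26. Any call on these 5 genes, here or below, is a description and no support. When the difference had to exceed the largest one among the controls (0.26), 12 epithelial genes passed upward and 1, Ehf, downward, where 3.09% of all genes were higher. The count of 26 was 16 without day 8 and 16 without day 10, 14 with the day left out of the model, and 6 on days 2, 4 and 6 alone. On days 8, 10 and 12 alone it was 28. The shares over all genes in these subsets of days are not given here, so the 2 counts do not show a timing particular to epithelial genes. The plot of daily differences gives each day's value.

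**Figure D1:**
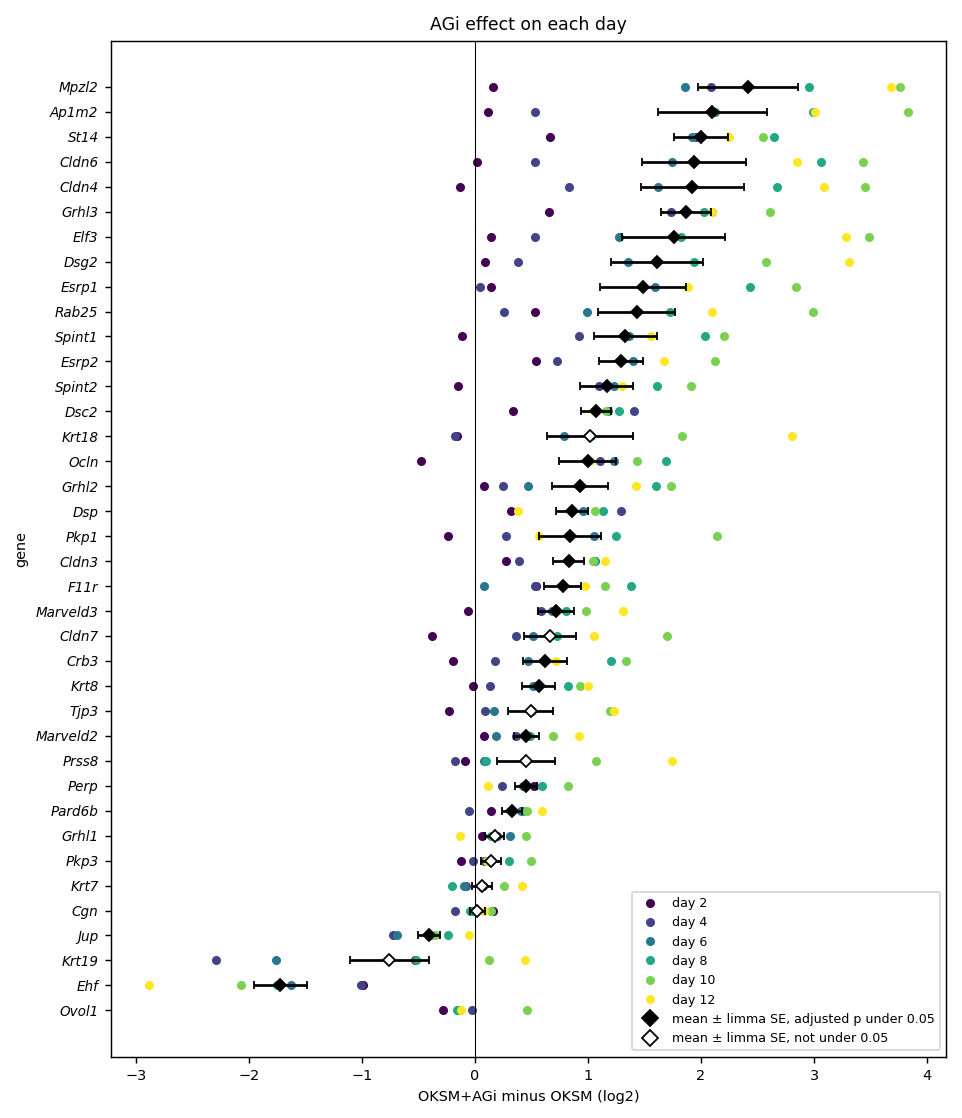
Difference between the arms for each of the 38 genes (OKSM with AGi minus OKSM alone, log2, horizontal axis). Coloured points are the 6 days, and diamonds with bars are the mean and its limma SE, filled where the adjusted p was under 0.05; Ovol1 was not tested and has points only. Mpzl2, Ap1m2 and St14 lie highest (2.42, 2.10 and 2.00), and Ehf lowest (−1.72).

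The promoters of these genes hold many E-boxes, and several are printed below. RefSeq's promoter table (build GRCm38.p6) held 23 of the 38 genes, and the first listed promoter of each, from 250 bases before to 50 after the start, was searched on both strands for CACCTG, the E-box of the SNAI and ZEB repressors, which reads CAGGTG on the other strand. It was present in 18 of 23 (78.3%), against 20.03% of the first promoters of 27025 genes, 18.3% of those of all genes tested and 22.2% of promoters in the same range of GC content. At least 2 matches were present in 8 of 23, against 2.85% of all promoters. Of the 16 promoters whose genes were higher with AGi, 15 held a match and that of Spint1 held none. Among genes not called, Tjp3, Krt7 and Krt18 held matches too, and Cldn7, Cgn and Grhl1 held none. A second listed promoter of Cldn7, outside these counts, held 2 matches. Across all genes the share was 19.6% among those higher with AGi and 15.4% among those lower. AACCGGTT, the site of Grainyhead-like factors, was in 0 of 23 (0.152% of all promoters), and GGGTGTGG, a KLF-type site, in 2 of 23 (3.57%); neither overlaps the E-box motif. A match is a description of the letters and shows no binding.

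In the following windows, 150 bases before to 30 after the start, printed 5′ to 3′ on the strand of the gene, capitals mark CACCTG or CAGGTG. Ap1m2, Spint2 and Crb3 are the ones with the most matches, Cldn4, Cldn6, Grhl3 and Rab25 are genes that separated strongly between the arms, and Jup, lower with AGi, has no match.
Ap1m2 (chr9:21312304-21312483, minus strand): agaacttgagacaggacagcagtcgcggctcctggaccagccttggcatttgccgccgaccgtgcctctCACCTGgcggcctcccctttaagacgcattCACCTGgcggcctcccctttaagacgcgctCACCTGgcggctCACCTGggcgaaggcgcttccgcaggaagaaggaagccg
Spint2 (chr7:29281948-29282127, minus strand): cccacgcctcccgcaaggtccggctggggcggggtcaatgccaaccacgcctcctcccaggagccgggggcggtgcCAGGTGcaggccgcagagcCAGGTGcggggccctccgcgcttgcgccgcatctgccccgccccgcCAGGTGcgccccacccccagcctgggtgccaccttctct
Crb3 (chr17:57062051-57062230, plus strand): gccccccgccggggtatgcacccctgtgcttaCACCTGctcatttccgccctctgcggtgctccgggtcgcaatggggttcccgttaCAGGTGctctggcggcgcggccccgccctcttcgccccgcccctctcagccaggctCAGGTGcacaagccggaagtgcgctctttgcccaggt
Cldn4 (chr5:134946905-134947084, minus strand): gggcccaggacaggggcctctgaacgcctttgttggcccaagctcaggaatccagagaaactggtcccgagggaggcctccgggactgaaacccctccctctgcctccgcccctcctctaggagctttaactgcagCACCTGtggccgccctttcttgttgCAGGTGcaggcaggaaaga
Cldn6 (chr17:23679215-23679394, plus strand): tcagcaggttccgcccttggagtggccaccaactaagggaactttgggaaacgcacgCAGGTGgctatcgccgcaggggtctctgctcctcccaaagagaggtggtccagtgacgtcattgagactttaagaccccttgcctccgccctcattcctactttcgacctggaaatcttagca
Grhl3 (chr4:135573603-135573782, minus strand): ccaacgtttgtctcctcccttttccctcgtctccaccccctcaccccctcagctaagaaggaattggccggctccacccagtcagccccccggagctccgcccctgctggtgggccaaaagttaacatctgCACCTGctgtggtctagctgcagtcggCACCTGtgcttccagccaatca
Rab25 (chr3:88548250-88548429, minus strand): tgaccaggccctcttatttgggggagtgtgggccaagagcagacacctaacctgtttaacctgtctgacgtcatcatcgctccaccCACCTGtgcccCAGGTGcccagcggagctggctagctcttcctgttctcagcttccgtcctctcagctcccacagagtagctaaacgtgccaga
Jup (chr11:100397761-100397940, minus strand): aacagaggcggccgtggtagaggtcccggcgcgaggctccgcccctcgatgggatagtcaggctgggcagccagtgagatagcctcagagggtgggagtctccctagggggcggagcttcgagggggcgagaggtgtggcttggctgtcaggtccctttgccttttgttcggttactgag

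In the Ap1m2 window, the 4 matches begin 81, 51, 21 and 9 bases before the start. The Cldn4 matches flank the start, beginning 14 bases before it and at base 12 of the transcript. Matches occur in genes activated early with AGi, such as Spint2 and Grhl3, and in later ones such as Rab25.

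Claudins form the paracellular seal, and among the 10 tight junction genes Cldn6 and Cldn4 had the highest differences between the arms. Cldn6, a claudin of embryonic epithelia, read 6.08, 6.29, 6.50, 6.03, 6.17 and 7.22 with OKSM alone on days 2 to 12, and 6.10, 6.82, 8.24, 9.10, 9.61 and 10.06 with AGi. Cldn4 read 6.63, 6.28, 6.86, 6.80, 6.95 and 7.90 with OKSM alone, and 6.50, 7.12, 8.48, 9.47, 10.40 and 11 with AGi. For both, every AGi array from day 6 on lay above every OKSM array, while day 2 did not tell the arms apart. The differences were 1.94 ± 0.46 for Cldn6 (limma SE, n = 6 days, higher on 6 of 6 days, adjusted p = 0.0135) and 1.92 ± 0.46 for Cldn4 (5 of 6 days, adjusted p = 0.0134). Cldn3 was higher by 0.83 ± 0.14 on all 6 days and Cldn7 missed the threshold (0.66 ± 0.23, adjusted p = 0.0534).

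Of the MARVEL proteins, which strengthen and order the seal, occludin (Ocln) was higher by 1.0 ± 0.25, Marveld3 by 0.72 ± 0.16 and tricellulin (Marveld2) by 0.45 ± 0.11. Marveld2 lay between 6.21 and 6.29 on the 6 arrays with OKSM alone, and read 6.37, 6.57, 6.46, 6.76, 6.93 and 7.20 with AGi, so the arms did not overlap although the change was small. Its values lay close to the array median, where an array resolves little. With OKSM alone, Cldn7, Dsg2, Grhl2 and Elf3 lay below the median on all 6 arrays, and Ap1m2 and Esrp1 on all but 1. A flat course of these genes in that arm is subject to the same limit. Ocln started lower with AGi on day 2 (5.86 against 6.34) and was higher from day 4 on, at 7.37 to 8.09 against 6.26 to 6.99.

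F11r, the adhesion molecule JAM-A, was higher on all 6 days (0.78 ± 0.16, adjusted p = 0.00842). It rose in both arms: it read 8.33, 8.62, 9.64, 8.73, 9.17 and 9.61 with OKSM alone and 8.87, 9.15, 9.72, 10.12, 10.32 and 10.59 with AGi, from 7.83 in MEFs. On day 6 the arms differed by only 0.08, on an array pair in which fibroblast markers were low; whether these are linked was not tested. The cytoplasmic scaffolds behaved differently. Cgn (cingulin) ranged from 7.47 to 7.57 with OKSM alone and from 7.39 to 7.67 with AGi, and its difference of 0.02 ± 0.06 changed sign in 4 alternative analyses. Tjp3 (ZO-3) did not pass either (0.49 ± 0.20, adjusted p = 0.0898), but its difference grew from −0.23 on day 2 to 1.23 on day 12.

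Both apical polarity genes were higher with AGi. Crb3, the Crumbs protein of the apical membrane, read 6.89, 6.80, 6.84, 6.71, 6.79 and 7.26 with OKSM alone, and 6.70, 6.97, 7.31, 7.91, 8.12 and 7.98 with AGi (difference 0.62 ± 0.20, 5 of 6 days, adjusted p = 0.0396). Pard6b, a subunit of the Par complex, read 7.48, 7.67, 8.08, 7.88, 8.12 and 8.29 with OKSM alone, and 7.61, 7.62, 8.49, 8.30, 8.58 and 8.88 with AGi (0.33 ± 0.09, 5 of 6 days, adjusted p = 0.0244). Crb3 stayed near its MEF value of 6.79 without AGi until day 10, whereas Pard6b rose in both arms. Neither passed against the largest control difference.

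The desmosome genes followed several courses. Dsp (desmoplakin, which anchors keratin filaments) and Perp (a membrane protein of desmosomes and a p53 target) were up by day 2 in both arms; they were singled out after their values were seen. Dsp read 5.85 in MEFs, then 8.36, 8.97, 9.23, 8.29, 8.44 and 9.07 with OKSM alone and 8.67, 10.26, 10.19, 9.42, 9.51 and 9.46 with AGi. Perp read 7.19 in MEFs, then 9.87, 11.13, 11.22, 10.67, 10.38 and 10.50 with OKSM alone and 10.39, 11.37, 11.64, 11.27, 11.20 and 10.61 with AGi. With OKSM alone they stood 2.51 (Dsp) and 2.68 (Perp) above MEFs on day 2, and the added difference with AGi was 0.86 ± 0.14 for Dsp and 0.45 ± 0.10 for Perp. On day 2 with OKSM alone, the genes at least 1 log2 above MEFs were Dsp, Perp and the desmosomal cadherin Dsc2, 3 of 38 against 3.0% of all genes. With AGi they were 5, with St14 and F11r added, against 3.25%.

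The cadherins Dsg2 and Dsc2 differed in timing. Dsg2 stayed between 5.26 and 5.79 with OKSM alone and read 5.35, 5.74, 6.68, 7.23, 7.93 and 9.10 with AGi (1.61 ± 0.41, 6 of 6 days, adjusted p = 0.0171). A second Dsg2 probe set stayed between 5.51 and 5.91 on all 18 arrays, so the rise rests on 1 of 2 probe sets. Dsc2 rose at once and was then lost without AGi: it read 7.54, 6.68, 6.66, 6.48, 6.28 and 6.32 with OKSM alone, falling by 0.11 log2 per day (SE 0.02, adjusted p = 0.0190), and 7.88, 8.09, 7.83, 7.75, 7.43 and 7.38 with AGi. Its difference of 1.07 ± 0.13 held on 6 of 6 days (adjusted p = 0.00149).

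The plaque proteins were less uniform. Jup (plakoglobin, which also serves adherens junctions) read 10.32, 10.97, 11.12, 10.62, 10.66 and 10.61 with OKSM alone and 9.92, 10.24, 10.43, 10.37, 10.30 and 10.55 with AGi, lower on all 6 days (−0.41 ± 0.10, adjusted p = 0.0136). The difference shrank to −0.05 by day 12 and did not pass on days 8, 10 and 12 alone. Pkp1, a plakophilin, was the member with a higher value in MEFs (8.24) than in ESCs (6.37) by over 1 log2. It fell in both arms by day 2 (7.20 and 6.95), stayed at 7.20 to 7.48 with OKSM alone, and rose with AGi to 9.41 on day 10 before 8.05 on day 12 (difference 0.84 ± 0.27, adjusted p = 0.0428). Pkp3 read 7.02, 7.10, 7.06, 6.87, 6.80 and 6.90 with OKSM alone and 6.89, 7.08, 7.14, 7.16, 7.29 and 7.0 with AGi, a difference of 0.14 ± 0.09 that did not pass.

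The keratins of simple epithelia form filaments as pairs of Krt8 with Krt18 or Krt19. Krt8 read 7.86, 7.99, 8.45, 8.66, 8.65 and 9.24 with OKSM alone, and 7.84, 8.12, 8.96, 9.48, 9.58 and 10.25 with AGi. It was the keratin called higher (0.56 ± 0.15, 5 of 6 days, adjusted p = 0.0197) and rose in both arms. Krt18, its partner, read 6.65, 7.23, 6.85, 7.31, 6.72 and 7.23 with OKSM alone, and 6.49, 7.05, 7.64, 8.34, 8.55 and 10.03 with AGi. Its difference of 1.02 ± 0.38 did not pass (adjusted p = 0.0654), since it was below 0 on days 2 and 4 and reached 2.80 on day 12. A second Krt18 probe set read 5.94 and 9.19 on day 12, so it moved the same way.

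Krt19 ran the other way. It read 8.29 in MEFs, then 8.82, 10.41, 9.78, 9.12, 8.35 and 8.18 with OKSM alone, a transient peak on day 4, while with AGi it stayed between 8.01 and 8.61. The difference was −2.29 on day 4 and 0.44 on day 12, so its mean of −0.76 ± 0.35 did not pass (adjusted p = 0.120). Krt7 ranged from 6.80 to 7.30 with OKSM alone and from 6.78 to 7.63 with AGi, and did not differ beyond its spread (0.06 ± 0.09).

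**Figure D2:**
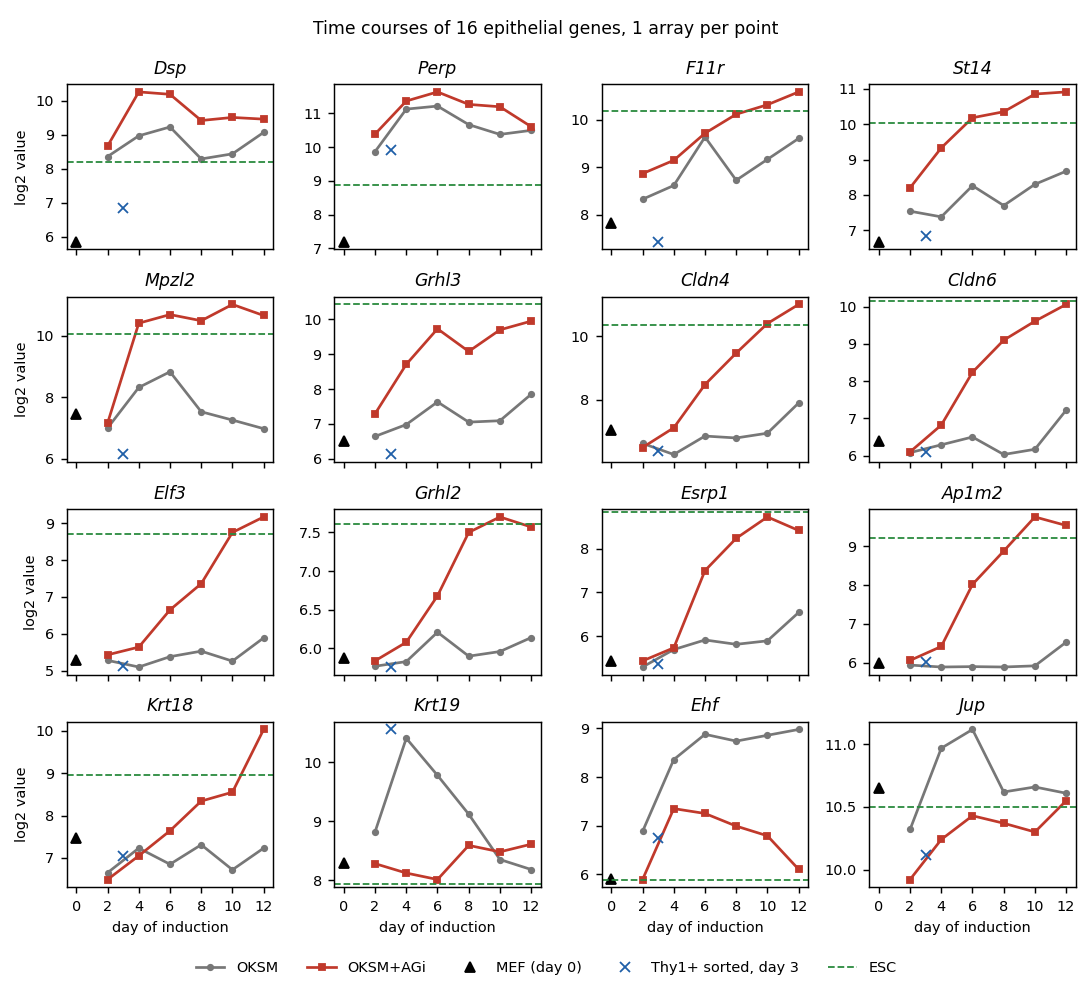
Time courses of 16 of the epithelial genes (vertical axis log2 value, own scale for each gene; horizontal axis day of induction), 1 array per point. Grey circles are OKSM alone, red squares OKSM with AGi, the triangle MEFs, the cross sorted Thy1+ cells and the dashed line ESCs. Dsp and Perp rise in both arms by day 2, and Cldn4, Cldn6, Elf3 and Ap1m2 leave the OKSM line from day 6. Ehf is higher without AGi on each day, and Krt19 on days 2 to 8 only.

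Regulators of epithelial identity gave the largest contrast within one family. Ehf and Elf3 are ETS transcription factors of epithelia. Ehf read 5.91 in MEFs, then 6.88, 8.36, 8.88, 8.74, 8.86 and 8.98 with OKSM alone, and 5.89, 7.35, 7.25, 6.99, 6.79 and 6.10 with AGi, lower on 6 of 6 days (−1.72 ± 0.24, adjusted p = 0.00190). Elf3 read 5.30 in MEFs, then 5.28, 5.10, 5.38, 5.53, 5.26 and 5.89 with OKSM alone, and 5.43, 5.64, 6.65, 7.36, 8.75 and 9.17 with AGi (1.76 ± 0.45, 6 of 6 days, adjusted p = 0.0183). In ESCs Ehf was at its MEF level (5.87) and Elf3 at 8.72, so for both genes the arm with AGi was the one that ended near ESCs.

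Of the Grainyhead-like factors, which activate junction genes, Grhl3 moved first and furthest. It read 6.64, 6.98, 7.63, 7.05, 7.09 and 7.85 with OKSM alone, and 7.29, 8.71, 9.73, 9.08, 9.70 and 9.95 with AGi, above every OKSM array from day 4 on (1.87 ± 0.22, 6 of 6 days, adjusted p = 0.00128). Grhl2 stayed at 5.77 to 6.21 with OKSM alone and climbed from 5.84 to 7.70 by day 10 with AGi (0.93 ± 0.25, adjusted p = 0.0200). Grhl1 read 6.38, 6.47, 6.68, 6.98, 6.90 and 7.10 with OKSM alone and 6.44, 6.67, 6.99, 7.12, 7.36 and 6.97 with AGi, rising in both arms alike (0.17 ± 0.08, not called). Of the splicing regulators that set epithelial isoforms, Esrp1 read 5.29, 5.69, 5.91, 5.81, 5.89 and 6.54 with OKSM alone, and 5.43, 5.73, 7.50, 8.24, 8.73 and 8.42 with AGi (1.49 ± 0.38, adjusted p = 0.0177). Esrp2 differed in kind: with OKSM alone it fell below its MEF value of 8.07 to between 7.05 and 7.46, while with AGi it was 7.99 to 9.17 (1.29 ± 0.20, adjusted p = 0.00261).

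The membrane proteases, trafficking and adhesion genes held the highest differences of all. Mpzl2, an immunoglobulin-domain adhesion protein, read 7.0, 8.32, 8.83, 7.53, 7.26 and 6.98 with OKSM alone, and 7.16, 10.41, 10.69, 10.49, 11.02 and 10.66 with AGi (2.42 ± 0.44, 6 of 6 days, adjusted p = 0.00502). With AGi the rise came between days 2 and 4 and was kept, whereas with OKSM alone the level was back below its MEF value of 7.46 by day 10. Ap1m2, the epithelial subunit of the AP-1B sorting adaptor, stayed at 5.89 to 5.94 through day 10 with OKSM alone before 6.53 on day 12, and read 6.06, 6.42, 8.02, 8.88, 9.76 and 9.54 with AGi (2.10 ± 0.48, adjusted p = 0.0120).

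Matriptase (St14), a membrane serine protease, exceeded its OKSM value by 2.0 ± 0.24, on each of 6 days (adjusted p = 0.00132), and its Kunitz inhibitors moved with it. Spint1 read 6.46, 6.82, 7.95, 7.66, 7.96 and 8.62 with OKSM alone, and 6.35, 7.74, 9.32, 9.70, 10.16 and 10.18 with AGi (1.33 ± 0.28, adjusted p = 0.00837). Spint2 read 7.83, 8.03, 8.86, 8.88, 8.99 and 9.49 with OKSM alone, and 7.68, 9.13, 10.08, 10.49, 10.89 and 10.79 with AGi (1.17 ± 0.23, adjusted p = 0.00721). Both inhibitors rose in both arms and were lower with AGi on day 2 only. Prostasin (Prss8), another protease of this cascade, was late: it read 6.74, 6.81, 7.08, 6.94, 6.88 and 7.18 with OKSM alone, and 6.65, 6.63, 7.15, 7.03, 7.95 and 8.93 with AGi (0.45 ± 0.26, not called). Rab25, a GTPase of apical recycling, was higher by 1.43 ± 0.34 (adjusted p = 0.0134), with 0.53 on day 2 and 2.99 on day 10.

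Trends over the days were compared next. With AGi, 28 of the 37 genes rose over the days (limma slope, adjusted p under 0.05), where 10.5% of all genes did, and with OKSM alone 7 rose (Cldn3, Cldn4, Pard6b, Krt8, Grhl1, Spint1 and Spint2), where 5.11% of all genes did. Cldn4 gained 0.48 ± 0.03 log2 per day with AGi and 0.12 ± 0.03 with OKSM alone, and Cldn6 0.41 ± 0.04 and 0.07 ± 0.04. For 13 genes the AGi slope exceeded the other, against 1.76% of all genes: 6 of tight junctions (Cldn4, Cldn6, Cldn7, Tjp3, Marveld2 and Marveld3), Dsg2, Krt18, Esrp2, Grhl2, Elf3, Rab25 and Ap1m2. Krt18, Cldn7 and Tjp3, which were not called on the mean of the days, were called on this measure, with slope differences of 0.30 ± 0.05, 0.16 ± 0.04 and 0.16 ± 0.02. Of the 13 genes, 5 (Cldn7, Marveld2, Dsg2, Grhl2 and Elf3) had entered the test only through AGi arrays, so the count is a description and no support. The same 5 are among the 28 that rose with AGi, and that count is to be read in the same way. For Dsp and Perp the fitted line over days 2 to 12 was near flat with AGi (0.01 ± 0.06 and 0.00 ± 0.06 log2 per day), over courses that rose after day 2 and then fell.

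These slope counts rest on the whole series of days. Leaving out day 2, 4 or 10 took the 13 genes to 8, 7 or 8, and the 7 that rose with OKSM alone were 2 without day 4, 8 or 10, 3 without day 12 and 4 without day 2. When each arm was given its own offset from day 8 on, an alternative added after the step in fibroblast markers between days 6 and 8 was seen, 4 genes rose with AGi (Cldn4, Tjp3, Dsg2 and Elf3). Under the same model 0 rose with OKSM alone and 0 had a higher slope with AGi (limma; 10 and 9 had an unadjusted p under 0.05 in a test of either direction). The AGi effect was larger on days 8 to 12 than on days 2 to 6 for 4 genes, against 0.642% of all genes: Cldn6 by 2.35 ± 0.40, Cldn4 by 2.30 ± 0.41, Rab25 by 1.68 ± 0.33 and Grhl2 by 1.32 ± 0.15 (limma adjusted p = 0.0356, 0.0391, 0.0483 and 0.0178). That count fell to 0 when day 2, day 4 or day 10 was left out (limma; 21, 22 and 20 genes then had an unadjusted p under 0.05) and to 1 when day 12 was, and it was 7 with day 6 omitted and 8 with day 8 omitted.

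The order of activation was read from single arrays and carries no test. A gene was called activated from the day on which it stayed at least 1 log2 above MEFs until day 12. It was counted for the 25 genes that read at least 1 log2 higher in ESCs than in MEFs, a share met by 8.4% of all genes. Crb3 (1.19) and Esrp2 (1.20) lay just inside this limit, and Marveld2 (0.97) and Cldn3 (0.96) just outside. With AGi, 4 of the 25 were activated by day 2 (F11r, Dsp, Perp and St14), 8 by day 4 (with Grhl3, Spint1, Spint2 and Mpzl2), 16 by day 6 (with Cldn4, Cldn6, Ocln, Dsg2, Krt8, Esrp1, Elf3 and Ap1m2), 19 by day 8 (with Crb3, Grhl2 and Rab25) and 24 by day 10 (with Cldn7, Tjp3, Pard6b, Krt18 and Prss8). St14, Spint1, Spint2, F11r, Mpzl2 and Grhl3 thus came before the claudins and keratins counted, whereas the protease Prss8 came on day 10; no order between roles was tested.

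With OKSM alone, 2 of the 25 were activated by day 2 and by day 4 (Dsp and Perp), 4 by day 6 and by day 8 (with Spint2 and St14), 6 by day 10 (with F11r and Spint1) and 9 by day 12 (with Krt8, Esrp1 and Grhl3). Among 1816 genes at or above the array median in ESCs and as much higher there than in MEFs, 59.1% were activated by day 12 with AGi and 22.0% with OKSM alone, against 24 and 9 of the 25 epithelial genes. Of the 9 genes activated in both arms, 7 were earlier with AGi, 2 (Dsp and Perp) fell on the same day, and 0 were earlier with OKSM alone. F11r and Grhl3 came 8 days later with OKSM alone, and Krt8, Esrp1 and Spint1 6 days later. F11r, Spint1 and Grhl3 had first passed the limit on day 6 with OKSM alone and dropped back under it on day 8, the day on which fibroblast markers rose in that arm; a link was not tested. Another 15 genes were activated with AGi only, and Esrp2 was activated in neither arm, since with AGi it passed the limit on day 10 and was back under it on day 12 (8.96 against 8.07 in MEFs).

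**Figure D3:**
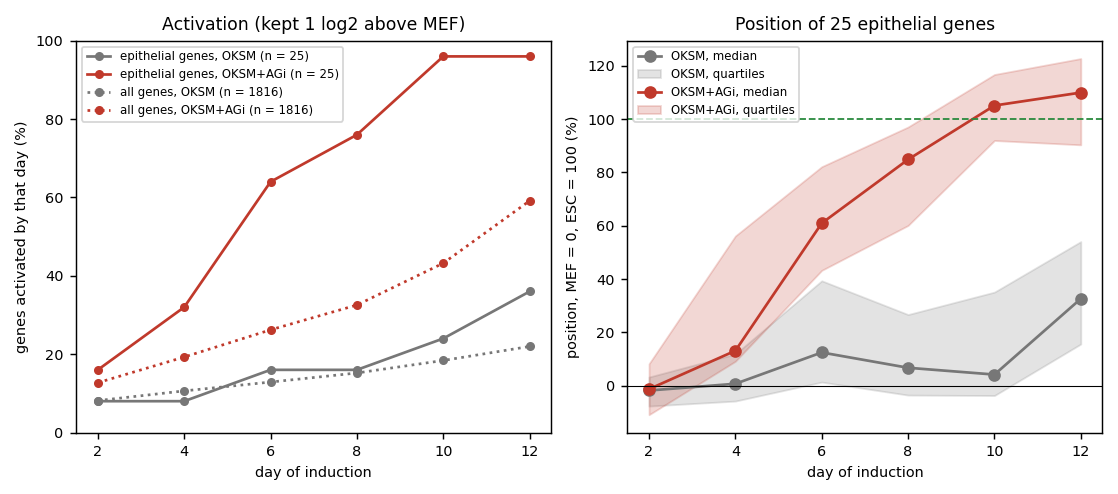
Left, percent of genes activated by each day (at least 1 log2 above MEFs from that day to day 12), for the 25 epithelial genes (solid) and all 1816 genes of the same ESC criterion (dotted). Right, position of the 25 genes between MEFs (0%) and ESCs (100%) on the log2 scale, as the median (line) and quartiles (band); with AGi the median passes 100% on day 10, and with OKSM alone it is 32.6% on day 12 (10.9% on a linear scale).

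Placed between MEFs (0%) and ESCs (100%) on the log2 scale, the 25 genes had a median position with AGi of −1.27% on day 2, 13.1% on day 4, 60.9% on day 6, 84.8% on day 8, 105% on day 10 and 110% on day 12. With OKSM alone the medians were −1.78%, 0.735%, 12.5%, 6.74%, 4.19% and 32.6%, and the last of these was 10.9% when positions were taken on a linear scale. Over the 1816 genes of the same ESC criterion, the median with AGi was 30.7% on day 2 and 74.2% on day 12. With OKSM alone it was 29.8% on day 2 and 28.7% on day 12, the latter near that of the epithelial genes. The genes were chosen, and the scale set, on the same MEF and ESC arrays. Of the 11 pluripotency markers that met the same ESC limit, 5 were activated by day 6 and 11 by day 12 with AGi, and they stood at a median position of 14.4% (day 6), 56.3% (day 8) and 94.9% (day 12). With AGi the median position of the epithelial genes was higher from day 4 on and lower on day 2 (−1.27% against 2.25%). With OKSM alone it was higher on days 6 and 8 and lower on days 2, 4, 10 and 12. On day 12 it was then 32.6% against 40.9%. These differences were not tested. On day 12 with AGi, positions ran from 72.0% (Pard6b) to 201% (Perp), and 15 of 25 were at or above the ESC value. With OKSM alone on day 12 they ran from −64.8% (Esrp2) to 194% (Perp), and 2 of 25 were.

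As a share of the ESC level on a linear scale, the 25 genes had a median of 32.7% with OKSM alone and 119% with AGi on day 12. Over the 1816 genes these medians were 46.9% and 74.5%. Among genes with wide gaps between the arms, Cldn4 read 18.3% with OKSM alone and 156% with AGi, Cldn6 13.1% and 94.0%, Elf3 14.1% and 137%, Ap1m2 15.5% and 125%, and Mpzl2 11.7% and 151%. In MEFs they already read 10.1%, 7.33%, 9.36%, 10.7% and 16.4%, in the same order. Perp (304% and 328%) and Dsp (185% and 241%) were above the ESC level in both arms. Fibroblast markers still averaged 9.68 in that AGi culture, against 7.74 in ESCs. Genes at least 1 log2 above ESCs on day 12 with AGi were Perp, Pkp1, Dsg2, Dsp, Cldn3, Krt18 and Dsc2, 7 of 38 against 5.43% of all genes. Of the 7, 5 are desmosome genes. As much below ESCs were 0 of 38, where 469 of all 22180 genes were. With OKSM alone, 20 of 38 were at least 1 log2 below ESCs, against 5.92% of all genes, led by Mpzl2 (−3.09), Cldn6 (−2.94) and Elf3 (−2.83). As much above ESCs were Ehf (3.11), Perp (1.60) and Pkp1 (1.11), 3 of 38, where 1986 of all 22180 genes were.

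**Figure D4:**
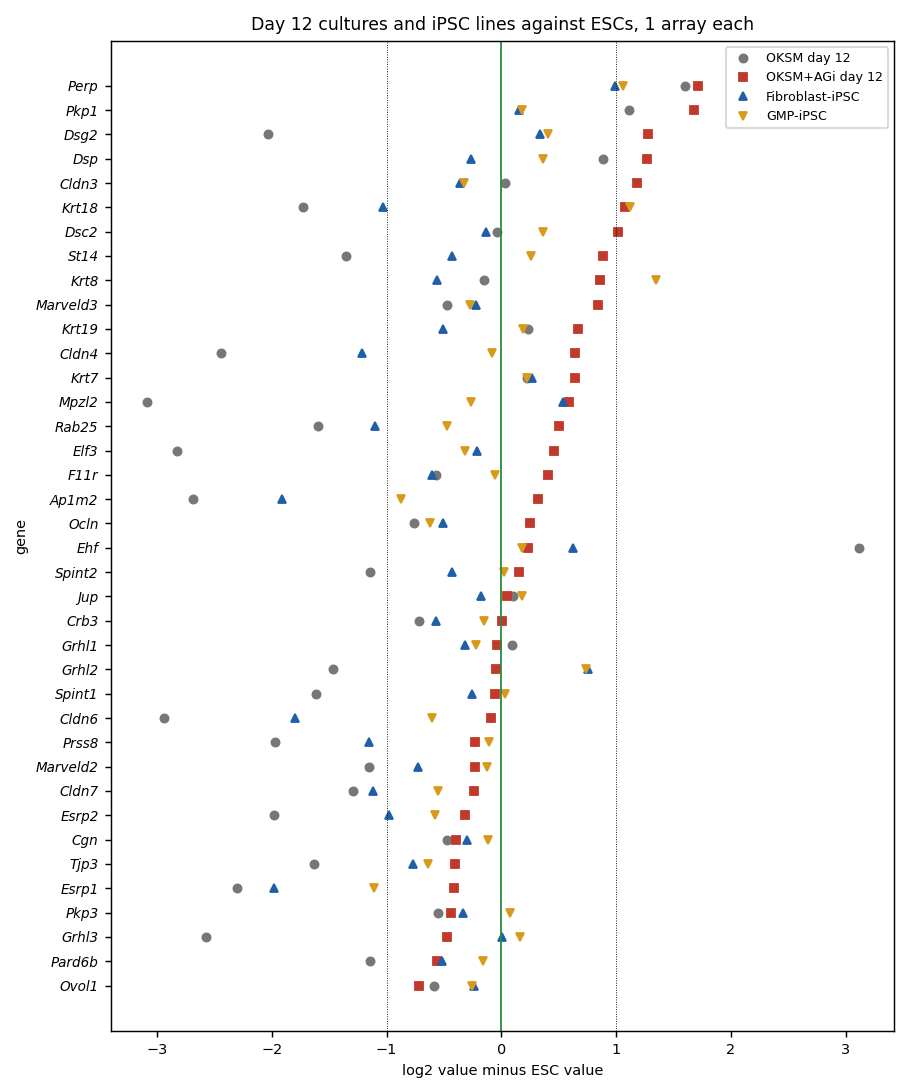
Difference from the ESC array (log2, horizontal axis) for each of the 38 genes, 1 array each: OKSM alone on day 12 (circles), OKSM with AGi on day 12 (squares), Fibroblast-iPSC (upward triangles) and GMP-iPSC (downward triangles). Dotted lines mark 1 log2; with OKSM alone 20 genes lie left of −1, with AGi 0.

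Both iPSC lines were set against the ESC array by size of difference, without a test. In the line made from fibroblasts, 8 of 38 epithelial genes were at least 1 log2 lower than in ESCs, against 1.06% of all genes: Esrp1 (−1.98), Ap1m2 (−1.91), Cldn6 (−1.80), Cldn4 (−1.21), Prss8 (−1.15), Cldn7 (−1.12), Rab25 (−1.10) and Krt18 (−1.03). None was as much higher, where 372 of all 22180 genes were. The median position was 64.0%, against 85.4% over the 1816 genes of the same ESC criterion. The mean level of the 12 pluripotency markers was 10.89 in this line and 10.88 in the line from GMPs, against 10.83 in ESCs, while that of the 10 fibroblast markers was 8.65, 6.91 and 7.74. The part of those fibroblast transcripts in the lower epithelial values was not tested. In the line from GMPs, 1 gene was at least 1 log2 lower (Esrp1, −1.11), against 0.766% of all genes. Krt8 (1.35), Krt18 (1.12) and Perp (1.06) were at least 1 log2 higher, where 134 of all 22180 genes were. The median position in this line was 95.4%, against 96.8% over the 1816 genes. Set directly against each other, the fibroblast line was at least 1 log2 lower for Krt18, Krt8, Cldn6, Cldn4, Prss8 and Ap1m2, and 0 of 38 were as much higher. Of all 22180 genes, 67 were as much lower and 283 as much higher. The lines differ in donor cell and in hours of induction, which cannot be told apart. Grhl3 (10.43 and 10.58 against 10.43) and Elf3 (8.50 and 8.41 against 8.72) were near the ESC value in both lines, and Grhl2 was above it (8.36 and 8.35 against 7.61).

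The sorted Thy1+ cells, which had kept a fibroblast surface marker after 3 days of OKSM, had a median position of −5.21%. Over the 1816 genes of the same ESC criterion it was 24.2%. At least 1 log2 above MEFs were Perp (9.92 against 7.19), Krt19 (10.56 against 8.29) and Dsp (6.86 against 5.85), 3 of 38 against 2.58% of all genes. Mpzl2 was lower (6.14 against 7.46). Krt19 was higher in these cells than on any other array, and the neighbouring bulk cultures with OKSM alone read 8.82 on day 2 and 10.41 on day 4. Dsp, by contrast, was 8.36 and 8.97 in those cultures. Cells sorted for loss of Thy1 were not analysed here.

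GMPs are blood progenitors and not epithelial, and their median position was 5.77%, against 30.6% over the 1816 genes of the same ESC criterion. Spint1 (10.02 against 6.73 in MEFs), Spint2 (10.34 against 7.11), St14 (9.05 against 6.67) and Dsp (7.18 against 5.85) were at least 1 log2 above MEFs, 4 of 38 against 7.42% of all genes. As much lower were Jup, Krt19, Pkp1 and Mpzl2, also 4 of 38, where 1882 of all 22180 genes were. In ESCs Spint1 read 10.23 and Spint2 10.63, close to the GMP values. Jup was lowest in GMPs (7.82 against 10.65 in MEFs). Prss8, by contrast, was 0.21 above MEFs in GMPs and 2.37 above them in ESCs. The map of all 38 genes shows these levels side by side.

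**Figure D5:**
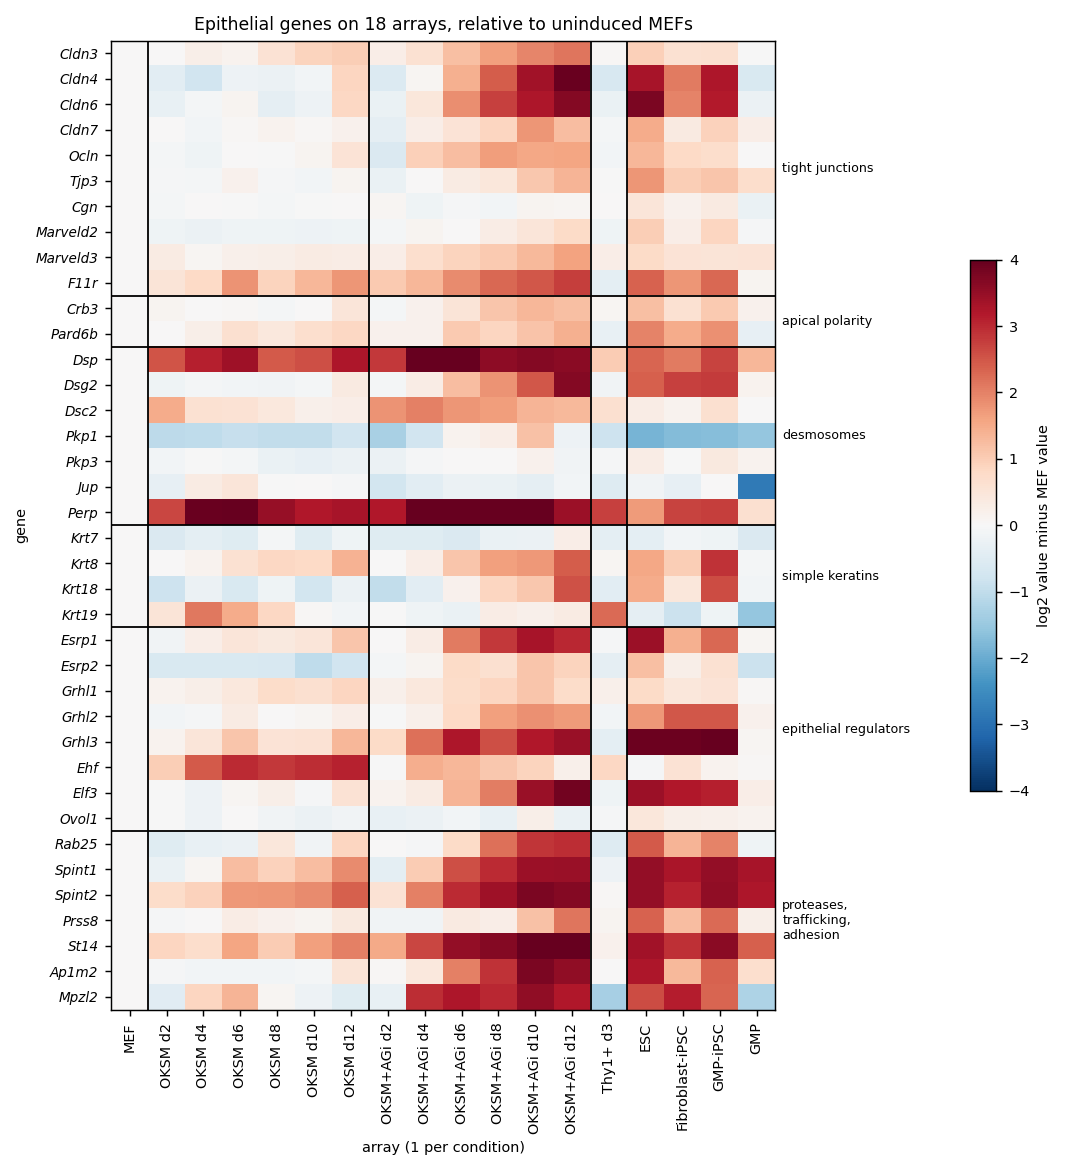
All 38 epithelial genes (rows, grouped by role) on the 18 arrays (columns), coloured by log2 value minus the MEF value; the scale is cut at 4 and −4. Red is above MEFs and blue below: Dsp and Perp are red in both arms from day 2, most other rows with a red ESC cell turn red with AGi from day 6 to day 10, and Ehf is dark red with OKSM alone and near white in ESCs.

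Other genes of the same programmes were less uniform. Counts of the lists below are to be read against the shares over all genes given above, 19.6% higher and 19.3% lower. Of 28 further epithelial adhesion and polarity genes tested, 12 were higher with AGi and 5 lower. Epcam (2.40 ± 0.47), Tfcp2l1 (2.40 ± 0.36, also on the pluripotency list) and Cdh1 (2.10 ± 0.40), the epithelial cadherin, were highest, and Cldn1 (−1.29 ± 0.11), Cgnl1 (−0.47 ± 0.08) and the tight junction scaffold Tjp1 (−0.34 ± 0.07) lowest. Cldn1 thus moved against Cldn3, Cldn4 and Cldn6. Of 10 mesenchymal genes 7 were lower and 0 higher, including the E-box repressors Snai2 (−1.20 ± 0.11) and Zeb1 (−0.64 ± 0.10). The miR-200 genes, 4 of 5 measured, stayed below the test's filter. Of keratinocyte markers, 0 of 7 were higher and 1 was lower with AGi, and the mean level of the 16 measured was 6.25 to 6.46 with OKSM alone and 6.24 to 6.46 with AGi, near the array medians. Of 8 trophoblast markers tested 0 were higher and 1 lower, of 14 of primitive endoderm 1 and 5, of 11 of macrophages 1 and 7, and of 3 of endothelium 0 and 2. The mean level of the 16 macrophage markers was 6.40 to 7.92 with OKSM alone and 6.34 to 7.54 with AGi. The part of these cell types in the epithelial results was not tested. Of the 12 pluripotency markers, 6 were higher and 0 lower, and of the 10 fibroblast markers 9 were lower and 0 higher.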

How the data were processed

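RNA came from RNeasy Mini columns, per the labels' protocols. The authors deposited log2 expression values per probe set, for which the submitters' processing notes name RMA and Affymetrix Expression Console. RMA shrinks differences of dim probe sets. Its settings, the versions and the probe sets' genome build were not given in the sources used here.

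Of 41345 probe sets, 23521 carried 1 gene symbol, updated by gene ID through RefSeq's table of GRCm38.p6, and gave 22180 genes. A gene entered the tests if it was at or above the median of 3 or more among the 12 arrays of the time course. Differences were fitted over all 13865 such genes with limma 3.58.1 in R 4.3.3 (eBayes, Benjamini-Hochberg). The AGi effect and its late minus early difference had the day as a block, because the labels give each day 1 array of each arm (5 and 4 residual degrees of freedom), and the slopes a line per arm (8 residual degrees of freedom). Nothing says that the days were separate cultures, so p-values measure the spread between these samples, which may be technical. Single arrays were compared by size only. Fits were also run on simulated arrays with independent errors, which cannot speak for ordered days or shared cultures.

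The genes, lists and tests were chosen with earlier results of these data known. All 38 genes are named. Those given day by day are the highest and lowest pair of AGi effects in each role, genes called lower, and genes activated at least 6 days apart. Others singled out are Dsp, Perp, Pkp1, Esrp2 and Grhl2, after their values were seen. Alternatives covered filters, probe sets, normalization, controls, thresholds, trends and leaving out each day.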

Additional observations from a re-analysis of the deposited data

Results flagged for a closer look

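Of 114 groups of 6 values tested for a value far from the others (the daily differences and the 2 arms, for each of 38 genes), 11 held one. The rule's rate of about 1 in 20 holds for values without order. These are courses over days, many with a trend, and the daily differences come from the same arms. The count therefore has no such rate to be set against. On day 2 the difference between the arms stood apart for Ocln (−0.48), St14 (0.66) and Dsc2 (0.34), each below the other days, and on day 10 for Ovol1 (0.46), above them. With OKSM alone, day 12 was far above the other days for Crb3 (7.26), Dsg2 (5.79) and Ap1m2 (6.53), day 2 far above them for Dsc2 (7.54), and day 2 far below them for Ehf (6.88). With AGi, day 2 was far below the other days for Ocln (5.86) and Mpzl2 (7.16). Of the 11, 7 thus fall on day 2 and 3 on day 12, the ends of the course. The AGi effect differed between late and early days for Cldn4 (2.30), Cldn6 (2.35), Grhl2 (1.32) and Rab25 (1.68), as tested by the interaction in limma.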

How the results depend on the processing

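Counts were compared over the alternatives, and the share of all genes under each is not given here. The 26 genes higher with AGi became 12 at an adjusted p of 0.01, 12 against the largest control difference, 6 on days 2, 4 and 6 alone, and 16 to 29 with 1 day left out; the 2 lower became 1 at 0.01, 1 against the control difference and 1 on days 8, 10 and 12 alone. With no replicate block, so that days are not paired, 14 were higher and 2 lower. The 28 rising with AGi ranged from 23 to 28, except for 4 with a separate level for days 8 to 12, an alternative added after the data were seen. The 7 rising with OKSM alone became 4 with no filter, 4 with the controls subtracted (which shifts the median of all genes by −0.17), 2 at 0.01, 0 with the separate level, and 2 to 6 with 1 day left out. The 13 with a higher slope became 8 with a filter on 6 arrays, 7 with the controls subtracted, 8 at 0.01, 0 with the separate level, and 7 to 12 with 1 day left out. The 4 with a larger late effect became 2 with the filter on 6 arrays, 7 with the controls subtracted, 0 at 0.01 (limma; 27 had an unadjusted p under 0.05), and 0 to 8 with 1 day left out. The 9 genes activated with OKSM alone became 16 at 0.5 log2 and 4 at 2 log2, and the median position of the 25 on day 12 with OKSM alone fell from 32.6% to 10.9% on a linear scale. The cause was not tested.

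The sign of small effects turned for the Cgn AGi effect (−0.15 with the controls subtracted, −0.016 on days 2 to 6 alone, and −0.00837 to 0.0593 with 1 day left out, below 0 without day 2 and, at −0.00384, without day 10), the Krt7 AGi effect (−0.11 with the controls subtracted, −0.036 on days 2 to 6, and −0.0107 to 0.113 with 1 day left out, below 0 without day 12), the Pkp3 AGi effect (−0.029 with the controls subtracted, −0.022 on days 2 to 6), the Prss8 AGi effect (−0.063 on days 2 to 6) and the Krt19 AGi effect (0.013 on days 8 to 12); none of these was called. Of the values for single genes, 1105 kept sign and call, 289 lost the call, 9 gained it and 11 turned.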
